A study of Homo sapiens with 2 samples.

Results

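Rb, the retinoblastoma protein, was examined at the start sites of 8 nuclear genes that serve, directly or indirectly, the maintenance or expression of the mitochondrial genome. The genes are TFAM, TFB1M, TFB2M, POLRMT, POLG, C10orf2 (also called TWNK), SSBP1 and NRF1. They were chosen by name, with 1 hg19 start site for each, and a gene was said to have an Rb peak where the summit of a peak lay within 3 kb of that site. By this rule 7 peaks of the 9423 in VCaP and 8 of the 21994 in LNCaP belong to the set, 15 of 31417 peaks in all.

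VCaP and LNCaP are established human prostate cancer cell lines that respond to androgen. In both, chromatin bound by Rb was precipitated with the mouse monoclonal antibody 4H1 and sequenced (ChIP-seq). All cells, at passage 10 to 15, had spent 3 days in 5% charcoal-stripped serum, which holds little steroid hormone, followed by 4 h with 10 nM of the androgen dihydrotestosterone (DHT). Untreated cells, input chromatin and further cultures were not analysed here, and each line is 1 library, so the values below compare 2 libraries, with no test between the lines. The VCaP library had 8691938 tags after filtering and the LNCaP library 3671482. Peaks were called without a control, so that enrichment is relative to the surroundings in the same library, and enrichment alone does not separate Rb binding from other sources of local signal.

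Mitochondria carry a small circular genome, and nearly all proteins that maintain it are encoded in the nucleus and imported. The helicase Twinkle (C10orf2) unwinds the mitochondrial DNA, the single-strand binding protein SSBP1 covers the exposed strand, and polymerase gamma, whose catalytic subunit is POLG, copies it. The RNA polymerase POLRMT transcribes the genome with the DNA-bending factor TFAM, which also packages it, and with TFB2M, which opens the promoter. TFB1M, a methyltransferase related to TFB2M, modifies ribosomal RNA. NRF1 (nuclear respiratory factor 1) is a transcription factor that binds promoters of many nuclear genes for mitochondrial proteins. Rb acts in the nucleus mainly by binding E2F transcription factors at promoters of cell cycle genes.

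The promoter sequences of TFB1M, POLRMT and TFB2M are shown because they hold the letters GCGCATGC, part of the site bound by NRF1, which is itself in the set. That of SSBP1 is shown for the only E2F match found, and that of TFAM, which had the highest ratio of LNCaP to VCaP fold enrichment, for comparison. Each is the 150 bases before the gene's start in RefSeq (build GRCh38.p14), 5′ to 3′ on the gene's strand, with matches to GCGCATGC, to CCGGAAG (the core of ETS family sites) and to the E2F letters in capitals. Matches were sought on both strands, and matches to GCGCATGC on opposite strands can overlap.
TFB1M: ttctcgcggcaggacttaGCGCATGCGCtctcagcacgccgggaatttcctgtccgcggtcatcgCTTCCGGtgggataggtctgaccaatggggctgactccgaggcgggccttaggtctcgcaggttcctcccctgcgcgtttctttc
POLRMT: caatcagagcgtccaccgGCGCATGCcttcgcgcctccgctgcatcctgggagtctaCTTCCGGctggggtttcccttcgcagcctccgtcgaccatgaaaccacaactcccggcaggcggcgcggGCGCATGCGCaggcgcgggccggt
TFB2M: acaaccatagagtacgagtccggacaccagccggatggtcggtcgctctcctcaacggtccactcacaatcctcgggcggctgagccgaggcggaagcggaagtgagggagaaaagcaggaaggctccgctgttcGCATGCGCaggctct
SSBP1: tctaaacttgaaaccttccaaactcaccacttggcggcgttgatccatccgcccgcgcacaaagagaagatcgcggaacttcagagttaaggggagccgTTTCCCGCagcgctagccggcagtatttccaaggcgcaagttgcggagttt
TFAM: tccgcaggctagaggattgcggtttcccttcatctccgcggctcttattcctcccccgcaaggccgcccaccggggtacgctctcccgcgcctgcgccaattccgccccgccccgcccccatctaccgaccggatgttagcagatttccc

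RefSeq windows of 300 bases (250 before the start and 50 after) matched 6 of the 8 genes, all but NRF1 and C10orf2. GCGCATGC was in 3 of the 6 windows and in 3.02% of all 34943 RefSeq windows of that length. The first of its bases lay at -132 in TFB1M, at -132 and -24 in POLRMT and at -15 in TFB2M, counted from the start, where the listed position is the lowest of overlapping matches. The shorter TGCGCA, which overlaps such sites, was in the windows of POLRMT and TFB2M and in 8.19% of all windows. CCGGAAG was in the windows of POLRMT, TFB1M and SSBP1, against 10.2% of all.

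E2F letters were sought as TTTCCCGC, TTTGGCGC, TTTCGCGC, TTTGCCGC and GGCGGGAA. Only SSBP1 held one of them, TTTCCCGC at -51, and 5.56% of all windows held at least 1. GGGCGG, the core of SP1 sites, was in all 6 windows (44.9% of all windows), CCAAT in 4 (34.6%), and TTTGAA, the letters of the cell cycle homology region, in none (15.2%). Windows of the set had 65 to 68% G and C, apart from SSBP1 with 51%, and the median over all windows was 58.7% (quartiles 47 and 68). They held 18 (SSBP1) to 31 (TFB2M) CpG, with a median of 14 over all windows (quartiles 4 and 28). The shares over all windows are not matched for CpG, which several of these motifs contain. Such matches describe letters only. The windows are in another build than the peaks, so no match was placed within a peak.

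In VCaP, Rb peaks lay at the start sites of TFAM, TFB1M, TFB2M, POLRMT, POLG, SSBP1 and NRF1, and none lay at C10orf2. LNCaP had a peak at each of the 8. For scale, positions within 3 kb of a summit made up 1.96% of the effective genome in VCaP (7 of 8 start sites) and 4.37% in LNCaP (8 of 8). That background counts all positions, most of them far from any gene. The share of all annotated start sites with a peak was not computed here, so that these counts do not set the 8 genes apart from other promoters.

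Each peak lay on the start or close beside it rather than elsewhere in the window. The start site was inside the peak at 6 of 7 genes in VCaP and at 8 of 8 in LNCaP. TFB1M in VCaP was the exception, with the edge of the peak 25 bp upstream of the start. The share of all promoter peaks that span a start was not computed. Summits were 40 to 219 bp from the start in VCaP (median 189) and 21 to 295 bp in LNCaP (median 96.5). No gene had a second peak within 3 kb. The summit farthest inside the limit was thus at 295 bp (TFAM, LNCaP), and the nearest summit outside it was at 6305 bp, upstream of POLRMT in LNCaP.

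**Figure D1:**
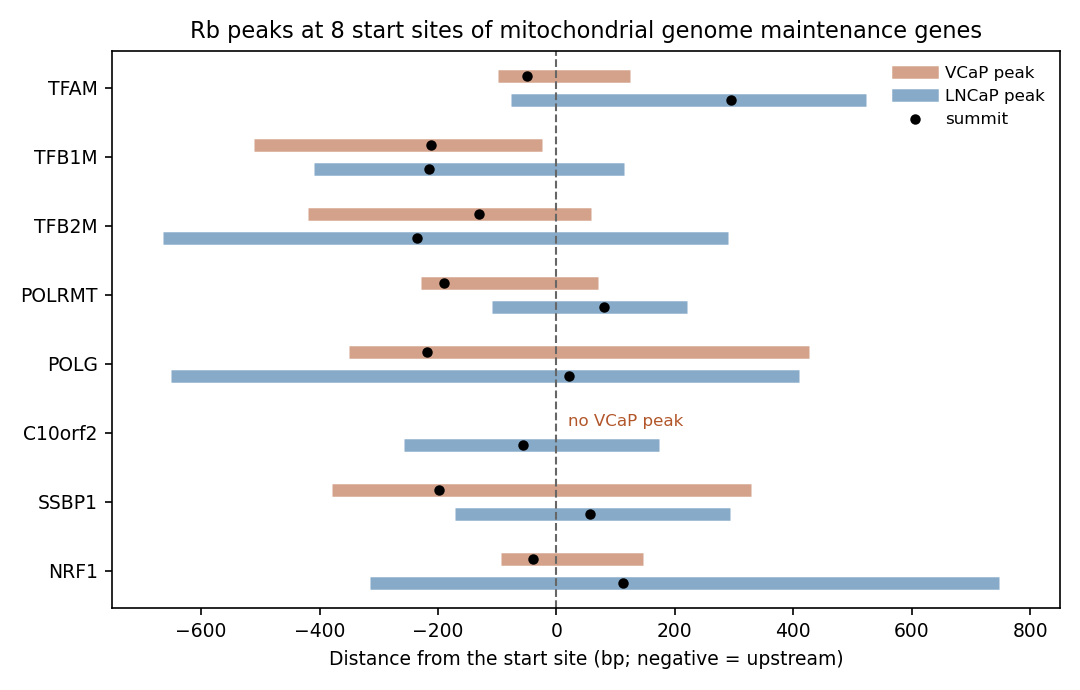
Extent of each Rb peak (bars) and its summit (points) by distance from the start site in bp, with the gene's direction of transcription to the right, for VCaP (upper bar) and LNCaP (lower bar). All VCaP summits lie upstream of the start, and 5 of 8 LNCaP summits lie downstream. The shares over all promoter peaks were not computed.

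TFB1M, the ribosomal RNA methyltransferase, had the highest fold enrichment of the set in both lines. Its VCaP peak at chr6:155635652-155636138 had 21 tags over the summit and a fold of 7.67, higher than 89.1% of VCaP peaks. The LNCaP peak at chr6:155635513-155636037 had 29 tags and a fold of 14.4, higher than 99.0% of LNCaP peaks and ranked 213 of 21994. Fold enrichment here is the authors' ratio of the summit pileup to the local background, each plus 1. Both summits were upstream, at 212 and 215 bp from the start, and only 3 bp apart. TFB1M was also the most isolated gene of the set: the nearest other peak was 581420 bp from the start in VCaP and 319139 bp in LNCaP.

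TFAM, the packaging and transcription factor of mitochondrial DNA, had a peak below the middle of the VCaP list and near the top of the LNCaP list. In VCaP the peak at chr10:60144804-60145028 had 11 tags and a fold of 5.31, higher than 43.3% of peaks. It was 225 bp long, the shortest length in the VCaP list, which equals the fragment length that the caller used there. In LNCaP it spanned chr10:60144827-60145426, with 23 tags and a fold of 11.0, higher than 95.3%. The summits were 344 bp apart, the widest separation of the set, at 49 bp upstream in VCaP and 295 bp downstream in LNCaP.

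TFB2M, the factor that opens mitochondrial promoters for POLRMT, had nearly the same fold in both lines. The VCaP peak (chr1:246729507-246729985) and the LNCaP peak (chr1:246729275-246730229) each had 20 tags at the summit. The fold was 6.99 in the former and 7.35 in the latter, higher than 83.2% and 72.2% of the respective lists. Both summits were upstream, by 131 and 236 bp. CNST starts in the opposite direction within 3 kb of TFB2M in RefSeq, so that the peak cannot be assigned to 1 of these genes. The same holds for the neighbours named below at POLRMT, POLG, C10orf2 and SSBP1.

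POLRMT, the RNA polymerase of mitochondria, was the only gene with the higher fold in VCaP. The peak at chr19:633498-633796 in VCaP had 9 tags and a fold of 5.08, and that at chr19:633348-633676 in LNCaP had 14 tags and a fold of 4.14. The LNCaP peak was higher than only 6.54% of LNCaP peaks, the lowest standing of the set by fold, while the VCaP peak was higher than 34.5% of its list. Ranked by pileup, these places were turned around, with the LNCaP peak above 52.9% of its list and the VCaP peak above 6.74%. This order depends on the background: relative to the genome mean of each library the ratio of LNCaP to VCaP was 1.94 (above 1 at 7 of 7 genes and in 90.8% of all pairs), and for pileup per 1000000 tags it was 3.68. The 10 kb around the peak held 43 tags in VCaP and 109 in LNCaP, a ratio of 6.00 once scaled to library size, above 97.6% of overlapping pairs. What part these surrounding tags have in the result was not tested. LOC105372234 starts within 3 kb, in the opposite direction.

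POLG, the catalytic subunit of polymerase gamma, had the longest peak of the set in VCaP and moderate folds. The peaks lay at chr15:89877600-89878376 in VCaP and chr15:89877616-89878676 in LNCaP, 777 and 1061 bp long. Their summits had 17 and 22 tags, with folds of 5.32 and 6.60, above 43.7% and 61.5% of the lists. POLG-DT, a transcript read in the opposite direction, and POLGARF, an overlapping reading frame, start within 3 kb. The transfer RNA gene TRR-TCG1-1 also reaches into that window in RefSeq.

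C10orf2, the Twinkle helicase, had a peak in LNCaP alone. It lay at chr10:102747036-102747467, with its summit 56 bp upstream of the start, 12 tags and a fold of 6.24, close to the middle of the LNCaP list (above 55.5% of peaks). Its pileup was the lowest of the 8 in LNCaP. The nearest VCaP peak was 73387 bp away. The VCaP list holds only peaks past the caller's limit, and would not show a weaker signal. MRPL43, a gene of the mitochondrial ribosome, starts within 3 kb in the opposite direction, and SEMA4G also reaches into that window.

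SSBP1, the single-strand DNA binding protein, came next by fold after TFB1M and TFB2M in VCaP, and after TFB1M and TFAM in LNCaP. The VCaP peak at chr7:141437742-141438449 and the LNCaP peak at chr7:141437949-141438414 each had 18 tags. The surrounding 10 kb held 40 tags in LNCaP and 80 in VCaP. The fold was 9.67 in LNCaP, above 90.6% of the list, and 6.79 in VCaP, above 80.5%. It was the only gene whose LNCaP peak was the shorter (466 against 708 bp). WEE2-AS1 starts within 3 kb in the opposite direction.

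NRF1, the transcription factor gene, had the lowest fold of the set in VCaP and a peak that was 4.41 times as long in LNCaP. The peak at chr7:129251461-129251701 in VCaP was 241 bp long with 14 tags and a fold of 4.92, above 28.8% of the list by fold and 53.6% by pileup. In LNCaP it covered 1062 bp at chr7:129251241-129252302, with 29 tags, as many as at TFB1M. The fold there was 8.16, above 80.6% of the list, with 111 tags in the 10 kb window against 45 at TFB1M.

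**Figure D2:**
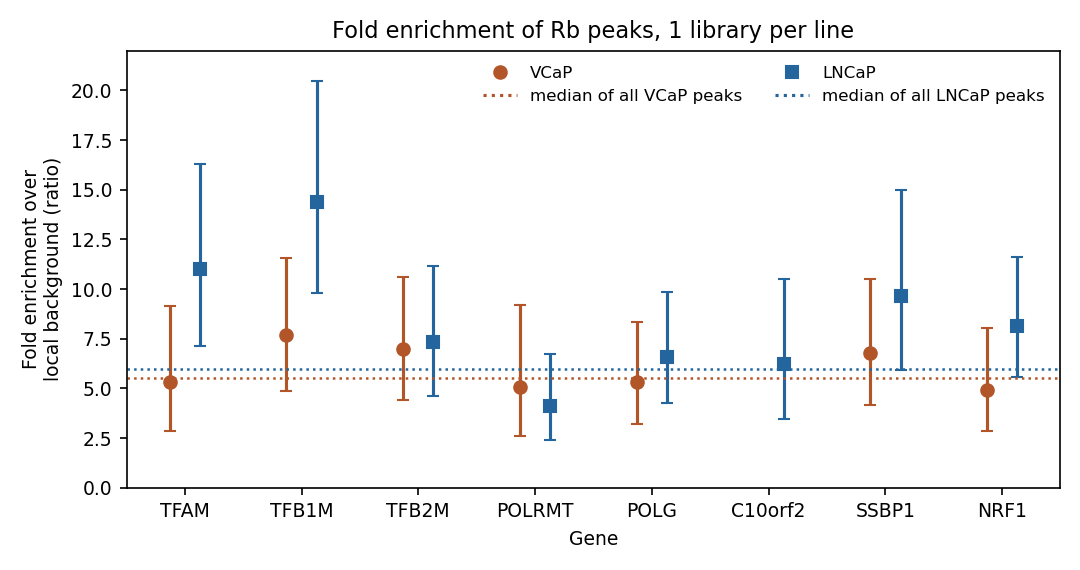
Fold enrichment (ratio to the local background) of the Rb peak at each gene in VCaP (circles) and LNCaP (squares), with exact 95% Poisson intervals of the summit pileup at a fixed background; dotted lines are the medians of all peaks. TFB1M is highest in both lines, and POLRMT alone is higher in VCaP.

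By fold, the order in VCaP was TFB1M, TFB2M, SSBP1, POLG, TFAM, POLRMT and NRF1, and in LNCaP it was TFB1M, TFAM, SSBP1, NRF1, TFB2M, POLG, C10orf2 and POLRMT. For each pair of genes within a line, the ratio of their pileups over background plus 1 was given an exact 95% interval, with the background held fixed and no correction for the number of pairs. In VCaP the interval took in 1 for all 21 pairs, so that no order was resolved there. In LNCaP it excluded 1 for 8 of 28 pairs. TFB1M was above NRF1, TFB2M, POLG, C10orf2 and POLRMT, with ratios from 1.76 (1.02 to 3.06) for NRF1 to 3.60 (1.84 to 7.38) for POLRMT. POLRMT was also below TFAM, SSBP1 and NRF1, with a ratio of 2.73 (1.35 to 5.74) for TFAM over POLRMT. Neighbours in the order were not resolved in either line. These intervals cover counting error only and not the spread between cultures.

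Within its own list, the median peak of the set had a higher fold than 43.7% of peaks in VCaP and 76.4% in LNCaP. By summit pileup the medians were closer, at 72.5% in VCaP and 78.4% in LNCaP. The list's median pileup was exceeded by 5 of 7 VCaP peaks and 7 of 8 LNCaP peaks. The median peak of the set was thus below the middle of the VCaP list by fold but not by pileup. In LNCaP 7 of 8 peaks were above the list's median fold of 6.00 and 4 were above its upper quartile of 7.59, and the median of the set was 7.76. In VCaP 3 of 7 were above the median of 5.51, the same 3 (TFB1M, TFB2M and SSBP1) above the upper quartile of 6.45, and the median of the set was 5.32. Lengths were above the list's median in 4 of 7 VCaP peaks and 7 of 8 LNCaP peaks, with medians for the set of 479 and 562.5 bp against 313 and 395 bp for the lists. A fold of at least 5 was reached by 6 of 7 VCaP peaks (69.1% of the list) and 7 of 8 LNCaP peaks (74.8%). In VCaP −log10 q was at least 5 for 4 of 7 peaks, with 55.2% of all VCaP peaks at that level, and it was 4.46 at TFAM, 4.72 at NRF1 and 3.70 at POLRMT. In LNCaP 7 of 8 reached it (66.2% of the list), and POLRMT, with 4.06, did not. Each list holds all peaks of its library, and promoter peaks were not ranked on their own. These places and lengths thus do not set the genes apart from other promoters.

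An LNCaP peak overlapped each of the 7 VCaP peaks (71.2% of the whole VCaP list), and a VCaP peak overlapped 7 of the 8 LNCaP peaks (30.2% of the whole LNCaP list). The LNCaP peak was the longer at 6 of the 7, as in 85.8% of all pairs. Overlap ran from 179 bp at POLRMT to 761 bp at POLG. Fold enrichment was higher in LNCaP at 6 of these 7 genes, next to 80.8% of all 6688 overlapping pairs, a share close to that of the set. The ratio of LNCaP to VCaP was 2.07 at TFAM, 1.88 at TFB1M and 1.66 at NRF1, above 93.8%, 88.3% and 77.7% of pairs. It was 1.43 at SSBP1, 1.24 at POLG, 1.05 at TFB2M and 0.814 at POLRMT. The median of the 7 was 1.43 and that of all pairs 1.32 (quartiles 1.07 and 1.62). SSBP1 and POLG lay between these quartiles, TFAM, TFB1M and NRF1 above them, and TFB2M and POLRMT below.

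**Figure D3:**
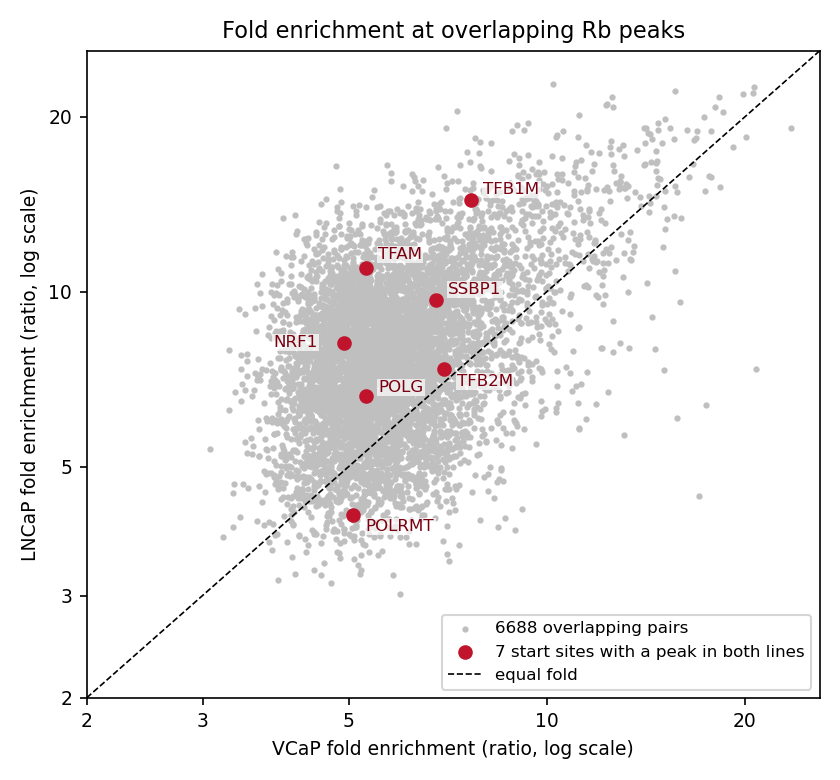
Fold enrichment in LNCaP against VCaP, both on log axes, for all 6688 overlapping pairs of Rb peaks (grey) and the 7 start sites with a peak in both lines (red); the dashed line marks equal fold. TFAM and TFB1M lie farthest above the line and POLRMT lies below it.

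Tags over the summit, scaled to 1000000 tags of the library, were higher in LNCaP at all 7 genes, as in 98.7% of all pairs. TFAM had 1.27 in VCaP and 6.26 in LNCaP, a ratio of 4.95 (exact 95% interval 2.32 to 11.2), and NRF1 had 1.61 and 7.90, a ratio of 4.90 (2.51 to 10.04). These were the largest ratios of the set, above 84.3% and 83.4% of pairs. The smallest were those of TFB2M and SSBP1, both 2.37, with intervals of 1.21 to 4.64 and 1.16 to 4.82. Each of these genes had the same number of summit tags in both libraries before scaling, so its ratio is that of the library sizes. All 7 intervals lay above 1. The share of all pairs with such an interval was not computed, so this count does not set the genes apart. The median ratio of 3.27 was next to 3.35 for all pairs. The intervals treat the summit as fixed, although it is where the pileup is highest. They compare 2 libraries of unlike depth and are no test between the lines.

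Tags in the surrounding 10 kb, which include those of the peak, also differed between the libraries. Scaled to library size, the ratio of LNCaP to VCaP was lowest at SSBP1 (1.18, above 9.90% of pairs) and TFB1M (1.28, above 12.2%), and highest at POLRMT (6.00). The median of the set was 2.07 and that of all pairs 2.37. At TFAM it was 2.07, with 56 tags in VCaP and 49 in LNCaP before scaling. These tags set the background of the fold, and their part in the differences between the lines was not tested.

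**Figure D4:**
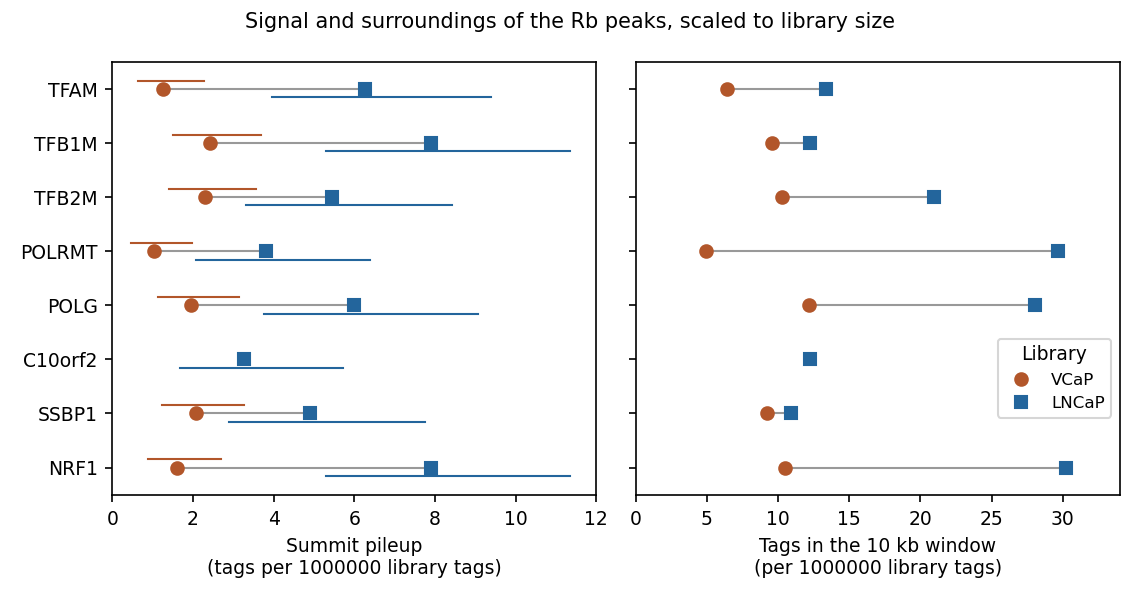
Tags over the summit (left, with exact 95% Poisson intervals as thin lines) and tags in the 10 kb window around the peak (right), each per 1000000 tags of the library, for VCaP (circles) and LNCaP (squares); grey lines join the lines' values for a gene. LNCaP is higher at all 7 genes with both values, and the gap in surrounding tags is widest at POLRMT.

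Summit positions differed between the 2 libraries at most of these starts. All 7 VCaP summits lay upstream of the start, while in LNCaP 3 lay upstream (TFB1M, TFB2M and C10orf2) and 5 downstream. At 5 of the 7 shared genes the LNCaP summit was the further downstream, by 153 bp at NRF1, 240 bp at POLG, 255 bp at SSBP1, 269 bp at POLRMT and 344 bp at TFAM. At TFB2M it was 105 bp further upstream, and at TFB1M the summits nearly coincided. The direction of summits over all promoter peaks was not computed here, so these counts do not set the genes apart from other promoters. The median distance between summits was 240 bp, against 73 bp (quartiles 30 and 155) over all pairs. Only 3 of 7 lay within 200 bp of each other, against 82.6% of all pairs. Among the 5768 pairs whose LNCaP peak was 329 to 1062 bp long, the range of the set, the median was 72 bp and 82.7% lay within 200 bp. Neither comparison was limited to promoter peaks or matched for pileup, so the wider distance does not set the genes apart from other promoters. A summit is the position of the highest pileup among 9 to 29 tags here, and how far it moves between cultures of a line is not known.

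Within 50 kb of the start, POLG and POLRMT had another VCaP peak, or 2 of 8 genes, where 49.8% of all VCaP peaks had another summit that near. In LNCaP 6 of 8 genes had one, next to 70.2% of all LNCaP peaks. The exceptions were TFB1M and TFAM, whose nearest other LNCaP peak was just past the limit, at 50143 bp. The neighbour of POLG, upstream of its start, was seen in both lines at nearly the same distance, 24095 bp in VCaP with a fold of 5.02 and 24082 bp in LNCaP with 7.27. Upstream of TFB2M, an LNCaP peak at 8818 bp had 6 tags and a fold of 4.50, below the list's median.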

How the data were processed

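Peak calling was done by the authors with MACS 2.1.0.20140616, per the file headers, on 1 library at a time and without a control, at a q-value limit of 0.05, keeping 1 tag per position, with a background taken over 10000 bp. MACS2 and HOMER are the tools, and hg19 the build, in the submitters' processing notes. The aligner is not given in the sources used here. The deposited pileup is a coverage signal of extended tags at the summit, not scaled to depth, and the deposited fold enrichment is a ratio to the local background. The deposited −log10 p and −log10 q values come from the same caller. Deposited positions and lengths are in bp.

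Peaks were matched to the start sites in Python 3.11.15 with pandas 2.3.3 and SciPy 1.17.1, after a check on simulated peaks with known overlaps. Start sites were taken as given with the gene set, and their strand from RefSeq or, for NRF1 and C10orf2, from general knowledge. Background tags were computed back from fold and pileup. Overlap means at least 1 bp, on chromosomes 1 to 22 and X. Poisson and Clopper-Pearson intervals are at 95% and cover counting error only. All 8 genes are named, whatever their values. The genes and motifs were chosen with earlier results of these data known. A wider list of mitochondrial genes was not counted here.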

Additional observations from a re-analysis of the deposited data

How the results depend on the processing

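The counts of genes with a peak were the same with a summit limit of 1, 5 or 10 kb, or with any base of the peak within 3 kb (7 in VCaP and 8 in LNCaP). With −log10 q of at least 5, VCaP had 4 and LNCaP 7, and 4 genes shared a peak. With a fold of at least 5 the counts were 6 and 7, and with the LNCaP list shortened to the VCaP length by fold, 6 in LNCaP. Shared genes numbered 3 where summits had to lie within 200 bp and 5 with reciprocal overlap of at least 50%, in place of 7. The ratio of fold at POLRMT changed direction, from 0.814 to 1.94 over the genome mean and 3.68 by pileup per 1000000 tags, and at the other 6 genes LNCaP was higher under both. Ranked by pileup in place of fold, 6 of 15 peaks stood higher in their list and 9 lower: POLRMT was above 52.9% of peaks in LNCaP and 6.74% in VCaP, NRF1 in VCaP above 53.6%, TFAM in VCaP above 24.8%, and C10orf2, then the lowest of the set in LNCaP, above 43.2%. No paired analysis was possible because each line has 1 library and no test was made; leaving out a replicate was not possible for the same reason. Summit pileups of 9 to 29 tags limit all values.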
